A study of Mus musculus with 6 samples.

Results

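The TGF-β superfamily pathway was read through 59 genes, chosen by gene symbol from a list of ligands, latent binding proteins, antagonists, receptors, SMADs and early response genes. All 59 were present among the 37384 gene symbols of the count table, and 57 passed the filter on low counts that left 15674 genes for testing. The RNA came from floated adipocytes of the inguinal subcutaneous white adipose tissue (scWAT) of male mice at postnatal day 7, the time the study calls P7. The 3 control libraries were from L1L2-FF mice (Lats1f/fLats2f/f), which carry the floxed alleles without Cre. The other 3 were from L1L2-AKO mice (Lats1f/fLats2f/fAdipoqCre), in which Cre is driven by the promoter of *Adipoq*, a gene of mature adipocytes, so that deletion of the Hippo kinases *Lats1* and *Lats2* is aimed at adipocytes and not at the stromal cells of the tissue. The paper compares L1L2-AKO tissue with that of L1L2-FF littermates, but it does not give the litters of these pools. Each library was made from a pool of 4 mice, so single animals cannot be told apart. The comparison asks which parts of the pathway differed in adipocytes of mice with this deletion.

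Ligands of this family are secreted as dimers and bind paired type II and type I serine/threonine kinase receptors. The type I receptor then phosphorylates SMAD proteins: SMAD2 and SMAD3 for TGF-β and activin, SMAD1, SMAD5 and SMAD9 for BMPs. These join SMAD4 and act on transcription in the nucleus. TGF-β itself is held in the matrix in a latent form by some of the latent TGF-β binding proteins. Antagonists such as noggin, chordin and follistatin trap the other ligands outside the cell. In adipose tissue, TGF-β is known to oppose adipogenesis and to drive matrix production by fibroblasts, whereas BMP4 is known for committing progenitors to the adipocyte lineage.

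Total counts ranged from 30548473 to 32107917 per library, and values below are counts per 1000000 (CPM), with library totals scaled by TMM, unless stated. *Lats1*, a targeted gene, was lower in all libraries labelled L1L2-AKO (log2 fold change -1.04, adjusted p = 0.00131). *Lats2*, the other, was higher (0.64, adjusted p = 0.0278), which is not the direction of a deletion at the level of whole-gene counts. The paper reports by qPCR that mRNA of both genes was reduced in adipocytes isolated from P7 L1L2-AKO scWAT. Which exons are floxed is not given in the sources used here, so whole-gene counts alone do not settle the deletion. "L1L2-AKO" below therefore means the libraries labelled so. The summed level of 14 macrophage markers was between 288.7 and 554.2 CPM in L1L2-FF and between 1038 and 1152 CPM in L1L2-AKO, and 13 of them passed the test upward. The summed level of 13 mature adipocyte markers was between 18970 and 23080 CPM in L1L2-FF and between 12930 and 15750 CPM in L1L2-AKO, and 6 of them, *Adipoq* included, passed downward. Of 6 Schwann cell markers 4 passed downward and 1 upward, and of 12 endothelial markers 1 passed, downward. Over all tested genes 9.28% passed upward and 7.18% downward. In a fraction of mixed cells such as this, fewer cells of a type and less RNA per cell cannot be told apart, and the part of these markers in the results below was not tested.

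Of the 57 tested genes 22 passed the threshold of an adjusted p of 0.05 (edgeR quasi-likelihood test, Benjamini-Hochberg over all tested genes), 19 higher and 3 lower in L1L2-AKO. That is 38.6% of the tested members, where 16.5% of all tested genes passed. In single directions, 33.3% of the members were higher against 9.28% of all genes, and 5.26% were lower against 7.18%. The median log2 fold change of the members was 0.30, and that of all tested genes was -0.02. The libraries of the genotypes did not overlap for 29 of the 57 members, or 50.9%, against 36.4% of all tested genes. Leaving out replicate 1 or 3 of L1L2-FF gave 10 and 12 members higher, and leaving out replicate 2 or 3 of L1L2-AKO gave 9. Of all tested genes, 1290, 2283, 1281 and 1374 passed in these fits, in that order and in either direction, against 2580 in the main fit. With replicate 2 of L1L2-FF dropped, 21 members were higher and 2845 of all tested genes passed. With replicate 1 of L1L2-AKO dropped, 21 members were higher and 2076 of all tested genes passed. Only 1 member was lower when replicate 1 of L1L2-FF or replicate 2 of L1L2-AKO was dropped. The ligands and secreted proteins carried the large differences, while most receptors and SMADs differed by less than a doubling.

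**Figure D1:**
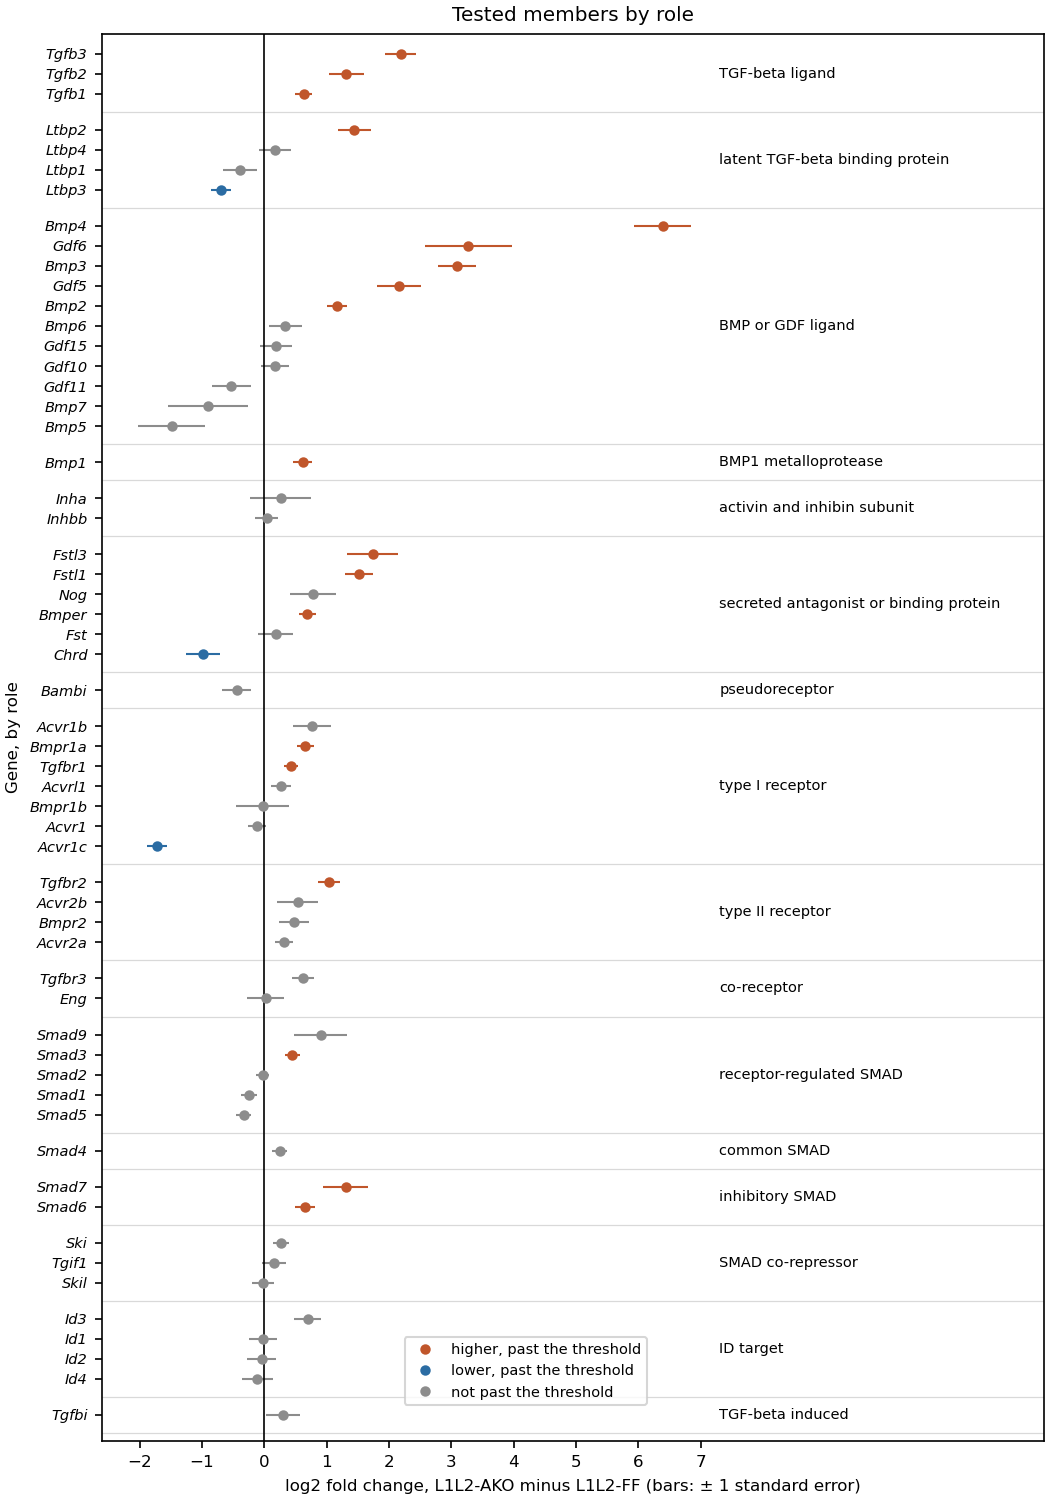
Log2 fold change of L1L2-AKO over L1L2-FF (horizontal axis) for the 57 tested genes, grouped by role (vertical axis). Points are edgeR estimates and bars are 1 standard error to each side; orange marks the 19 genes past the threshold upward, blue the 3 past it downward and grey the 35 not past it. The BMP and GDF ligands span the widest range, from -1.49 for *Bmp5* to 6.39 for *Bmp4*.

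The sequences upstream of 3 of these genes are given first, because they belong to the gene with the largest rise, the gene with the largest fall and the receptor that binds TGF-β. Each is the part of the 250 bases before the RefSeq start (GRCm38.p6) that lies outside any GENCODE M21 exon, written 5′ to 3′ on the strand of the gene. Capitals mark CAGAC or its reverse complement GTCTG, the short SMAD-binding motif. These genes are on the minus strand, at chr14:46390670-46390919 for *Bmp4*, chr9:116175364-116175613 for *Tgfbr2* and chr2:58357896-58358008 for *Acvr1c*. *Acvr1c* has a further RefSeq window, at chr2:58324808-58325057, which lies outside any exon and is not shown.
Bmp4: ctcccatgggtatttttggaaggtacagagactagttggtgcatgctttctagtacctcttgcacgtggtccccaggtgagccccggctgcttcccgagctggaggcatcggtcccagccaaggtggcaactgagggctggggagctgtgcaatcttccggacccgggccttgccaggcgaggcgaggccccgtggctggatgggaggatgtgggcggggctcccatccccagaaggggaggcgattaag
Tgfbr2: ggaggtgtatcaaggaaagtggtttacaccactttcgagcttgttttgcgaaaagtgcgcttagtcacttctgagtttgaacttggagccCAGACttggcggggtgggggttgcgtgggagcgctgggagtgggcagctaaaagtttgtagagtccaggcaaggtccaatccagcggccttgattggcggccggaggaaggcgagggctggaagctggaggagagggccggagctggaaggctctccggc
Acvr1c: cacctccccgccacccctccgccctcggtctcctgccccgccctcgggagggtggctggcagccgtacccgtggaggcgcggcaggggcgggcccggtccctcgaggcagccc

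These motifs were searched on both strands of the full 250 bases: CAGAC, the palindrome GGCGCC, which BMP-responsive SMADs are known to bind, and GGAATG, read on the other strand as CATTCC, the site of the TEAD factors through which the Hippo effectors YAP and TAZ act. The *Tgfbr2* window held 1 CAGAC. The *Bmp4* window and each *Acvr1c* window, also the one not shown, held none of these motifs. CAGAC was found upstream of 21 of the 42 members with an entry and of 45.8% of all 27025 genes. Among the members that rose it was found for 5 of the 12 with an entry, or 41.7%. GGAATG was found upstream of 3 of the 42 members, or 7.14%, against 14.4% of all genes. Of the 19 members that rose only 12 had an entry, and it was found upstream of 0 of them. *Bmp3*, *Tgfb3*, *Gdf5*, *Gdf6*, *Bmp2* and *Smad7* had no entry, so the motif counts do not cover them. GGCGCC was found upstream of 2 of the 12 risen members with an entry, or 16.7%. Over all members with an entry it was found upstream of 12, or 28.6%, against 10.8% of all genes. The median GC content of the windows was 64.2% for the members and 52.4% for all genes, and its part in that share was not tested. These counts describe letters in a window and not binding.

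All 3 TGF-β ligands rose in L1L2-AKO. *Tgfb3* (chromosome 12, 86056745 to 86079041, minus strand) was at 14.9, 15.4 and 15.3 CPM in the L1L2-FF libraries, in the order of replicates 1 to 3, and at 42.3, 83.0 and 82.7 CPM in L1L2-AKO. The controls were within 1 CPM of each other, every L1L2-AKO library was above them, and replicate 1 was the lowest of its group. The log2 fold change was 2.19 (SE 0.25, adjusted p = 0.00139). *Tgfb2* was at 5.68, 5.91 and 4.13 CPM in L1L2-FF and at 8.30, 14.5 and 16.4 CPM in L1L2-AKO. Its groups did not overlap either, and its log2 fold change was 1.32 (SE 0.28, adjusted p = 0.0162). *Tgfb1*, the isoform best known in fibrosis, was at 66.9, 54.9 and 57.1 CPM in L1L2-FF and at 104, 91.8 and 80.7 CPM in L1L2-AKO. Here replicate 1 was the highest of its group and the rise was the smallest of the 3 ligands, 0.63 on the log2 scale (SE 0.13, adjusted p = 0.0172). *Tgfb1* was not called without L1L2-FF replicate 3 or L1L2-AKO replicate 2 (adjusted p = 0.0509 and 0.0659), nor *Tgfb2* without L1L2-FF replicate 1 or L1L2-AKO replicates 2 or 3 (up to 0.0657).

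To compare the levels of different genes, CPM was divided by the exon length of the gene in kb. On that scale *Tgfb1* was the leading TGF-β ligand in L1L2-FF, with 68.5% ± 2.48 (SD, n = 3) of the summed level, and *Tgfb3* held 26.2% ± 2.23. In L1L2-AKO *Tgfb1* held 45.6% ± 12.3 and *Tgfb3* 49.0% ± 11.2, and *Tgfb2* held 5.25% ± 0.951 in L1L2-FF and 5.40% ± 1.21 in L1L2-AKO. L1L2-AKO replicate 1 kept *Tgfb1* in the lead at 59.7%, whereas replicates 2 and 3 had 40.2% and 37.0%. The summed level of these ligands was 17.2 ± 1.24 CPM per kb in L1L2-FF and 41.0 ± 5.67 CPM per kb in L1L2-AKO.

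**Figure D2:**
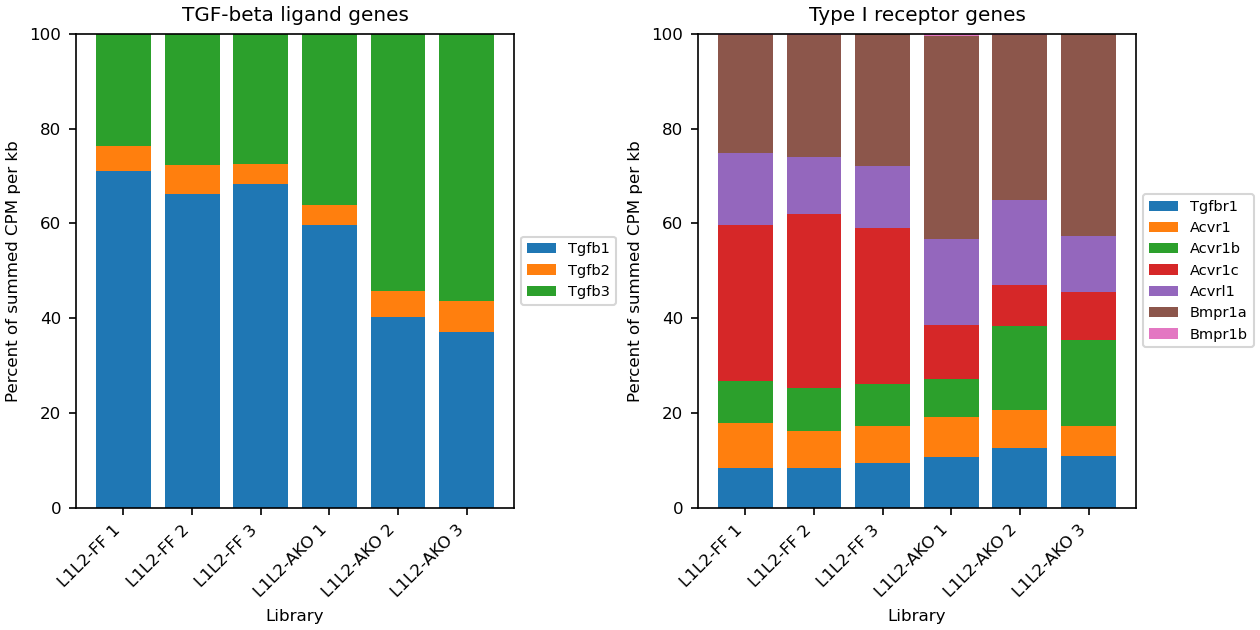
Share of each gene in the summed CPM per kb (vertical axis, percent) of the TGF-β ligands and of the type I receptors, in each of the 6 libraries (horizontal axis). The *Tgfb3* share was between 23.7% and 27.7% in L1L2-FF and between 36.1% and 56.5% in L1L2-AKO, and the *Acvr1c* share fell from between 32.9% and 36.6% to between 8.80% and 11.4%.

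The genes of the latent TGF-β binding protein family moved in both directions. *Ltbp2* (chromosome 12, 84783212 to 84876532, minus strand), a member that binds elastic microfibrils, was at 18.4, 20.6 and 22.5 CPM in L1L2-FF and at 33.3, 58.6 and 75.4 CPM in L1L2-AKO. It was higher in every L1L2-AKO library (log2 fold change 1.44, SE 0.27, adjusted p = 0.00988). *Ltbp3* was at 445, 387 and 450 CPM in L1L2-FF and at 232, 246 and 314 CPM in L1L2-AKO. All its L1L2-AKO values were below those of the controls (log2 fold change -0.69, SE 0.16, adjusted p = 0.0202), although it was not called without L1L2-FF replicate 1 or L1L2-AKO replicates 1 or 2 (adjusted p up to 0.0936). *Ltbp1* (21.8 to 47.8 CPM over all libraries) and *Ltbp4* (69.3 to 135 CPM) overlapped between genotypes and did not pass. *Ltbp3* stayed the most abundant of the 4 per length, with 69.3% ± 7.79 of the summed level in L1L2-FF and 52.2% ± 6.36 in L1L2-AKO, and the share of *Ltbp2* went from 3.69% ± 0.491 to 12.1% ± 3.94. *Bmp1*, the metalloprotease that cleaves procollagen and frees latent TGF-β and BMPs from their antagonists, was at 75.8, 63.0 and 57.4 CPM in L1L2-FF and at 84.1, 101 and 115 CPM in L1L2-AKO. Its groups were separate, with a log2 fold change of 0.61 (SE 0.16, adjusted p = 0.0328), but it was not called without L1L2-FF replicates 2 or 3 or L1L2-AKO replicates 2 or 3 (up to 0.11).

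BMP and GDF ligands gave the largest differences: 5 of 11 rose, 0 fell and 6 did not pass. That is 45.5% higher and 0% lower, against 9.28% and 7.18% of all tested genes. *Bmp4* (chromosome 14, 46383520 to 46390669, minus strand) was at 2.30, 2.44 and 2.58 CPM in L1L2-FF and at 90.6, 248 and 277 CPM in L1L2-AKO. The controls were almost level, and the lowest L1L2-AKO library was again replicate 1. The mean CPM was 84.1 times that of the controls, with a log2 fold change of 6.39 (SE 0.46, adjusted p = 0.000303), which placed *Bmp4* at rank 23 of the 15674 tested genes by fold change. In counts, the controls had 72, 79 and 80 and the L1L2-AKO libraries 3002, 7834 and 7924, so neither side is near the floor.

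*Bmp3* (chromosome 5, 98854415 to 98884396, plus strand), an atypical BMP known to oppose BMP signaling, was already abundant in controls at 88.9, 117 and 65.6 CPM and reached 551, 725 and 1034 CPM in L1L2-AKO. Its log2 fold change was 3.09 (SE 0.30, adjusted p = 0.000745), and the groups were far apart. *Bmp2* (chromosome 2, 133552159 to 133562885, plus strand), an osteogenic and adipogenic BMP, was at 5.23, 5.63 and 5.22 CPM in L1L2-FF and at 11.6, 10.6 and 13.9 CPM in L1L2-AKO. Its spread was narrow in both groups, and the log2 fold change was 1.17 (SE 0.17, adjusted p = 0.00327). *Gdf5* (chromosome 2, 155941023 to 155945367, minus strand), a joint-forming factor, was at 2.01, 1.48 and 1.97 CPM in L1L2-FF and at 4.40, 10.2 and 9.88 CPM in L1L2-AKO (log2 fold change 2.16, SE 0.35, adjusted p = 0.00535). Of its 50-base stretches 39.2% are also found on the opposite strand in the gene *Gm15557*, which had between 0 and 7 counts in each library.

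*Gdf6*, a close relative of *Gdf5*, was low throughout. It had 8, 8 and 0 counts in L1L2-FF and 45, 45 and 63 in L1L2-AKO, or 0.255, 0.247 and 0 CPM against 1.36, 1.43 and 2.20 CPM. The fitted log2 fold change of 3.27 (SE 0.70, adjusted p = 0.0170) rests on these few reads, and it was not called without L1L2-FF replicate 1 or L1L2-AKO replicates 2 or 3 (up to 0.0698). The ligands that did not pass were *Bmp5*, *Bmp6*, *Bmp7*, *Gdf10*, *Gdf11* and *Gdf15*, with log2 fold changes from -1.49 for *Bmp5* to 0.34 for *Bmp6*. *Bmp5* and *Bmp7* were also low, with 6 to 50 counts and 3 to 58 counts per library. *Bmp5* did not overlap between genotypes (1.40, 1.55 and 0.806 CPM against 0.784, 0.190 and 0.349 CPM, adjusted p = 0.0976), and 46.0% of its 50-base stretches are shared with an antisense gene. The other 4 lay between 2.76 and 15.1 CPM in all libraries and overlapped.

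Per length, *Bmp3* had the highest mean share of the BMP and GDF ligands in both genotypes, with 50.9% ± 4.96 of the summed level in L1L2-FF and 50.5% ± 7.54 in L1L2-AKO. *Bmp4* went from 4.72% ± 1.29 to 41.5% ± 8.92 and was second in L1L2-AKO, where its level of 91.3 CPM per kb did not differ from the 104 CPM per kb of *Bmp3* beyond the spread of the libraries. In L1L2-FF *Gdf15* and *Bmp6* followed *Bmp3* with 11.5% ± 2.03 and 10.7% ± 1.58. The summed level rose from 23.8 ± 4.87 to 211 ± 77.3 CPM per kb. The *Bmp4* share was 31.6% in L1L2-AKO replicate 1, where *Bmp3* held 58.4%, and 48.9% and 44.0% in replicates 2 and 3, where *Bmp3* held 43.3% and 49.9%, so that *Bmp4* was ahead in replicate 2.

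**Figure D3:**
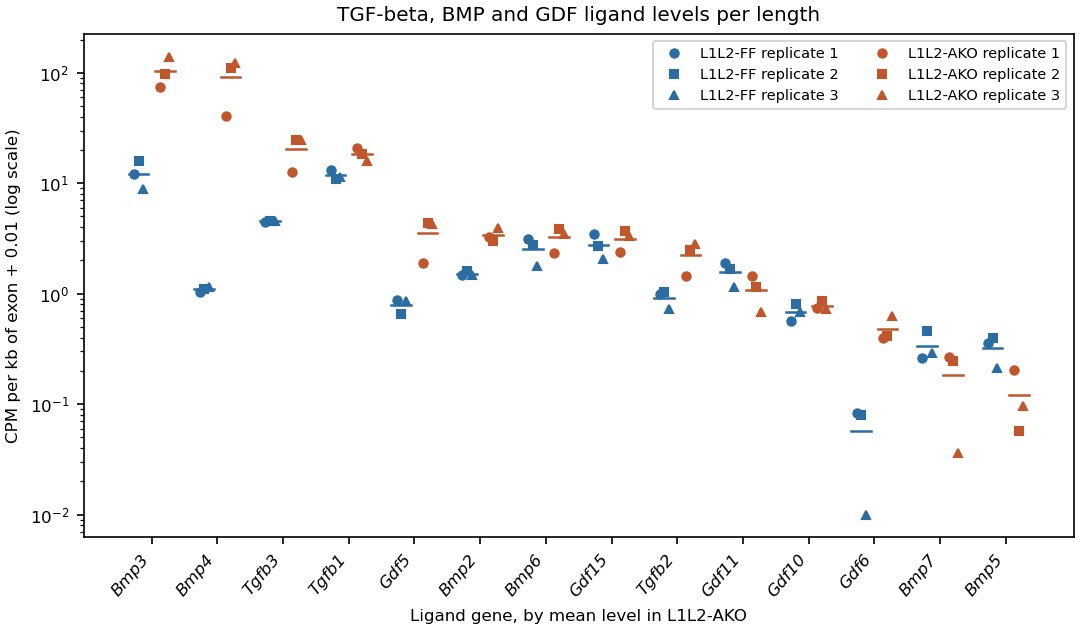
Level of each TGF-β, BMP and GDF ligand gene in CPM per kb of exon plus 0.01 on a log axis (vertical), ordered by the mean in L1L2-AKO (horizontal), with 1 point per library and a bar at the mean of each genotype. *Bmp4* moved from 1.09 CPM per kb, a level like that of *Tgfb2* at 0.904, to 91.3 CPM per kb, beside *Bmp3* at 104.

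Activin subunits did not pass. *Inhbb*, the βB subunit and an adipocyte product, was the only abundant one, with 64.1 to 87.7 CPM in L1L2-FF and 60.0 to 93.5 CPM in L1L2-AKO (log2 fold change 0.04, SE 0.18, adjusted p = 0.922). *Inha*, the inhibin α subunit, was between 1.03 and 3.65 CPM and overlapped. *Inhba*, the βA subunit, did not pass the filter: it had 4, 2 and 0 counts in L1L2-FF and 14, 2 and 0 in L1L2-AKO.

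Secreted antagonists and binding proteins were mixed: 3 of the 6 tested rose, 1 fell and 2 did not pass. *Fstl1* (chromosome 16, 37776873 to 37836514, plus strand), a follistatin-like glycoprotein of mesenchymal cells, was the most abundant member per length in both genotypes, at 93.5 and 267 CPM per kb. It was at 513, 499 and 366 CPM in L1L2-FF and at 975, 1359.6 and 1602 CPM in L1L2-AKO. The groups were separate, with a log2 fold change of 1.51 (SE 0.23, adjusted p = 0.00405). *Fstl3*, which binds activins and myostatin, was at 0.702, 1.33 and 1.16 CPM in L1L2-FF and at 2.44, 2.76 and 5.52 CPM in L1L2-AKO. All its L1L2-AKO libraries were above the controls (log2 fold change 1.74, SE 0.41, adjusted p = 0.0242), but it had only 22 to 158 counts per library, 46.2% of its stretches are shared with the antisense *Prss57*, at 0 to 6 counts, and it was not called without L1L2-FF replicates 1 or 3 or L1L2-AKO replicates 2 or 3 (up to 0.0863). *Bmper*, a crossveinless-type BMP binding protein, was at 16.9, 17.6 and 15.8 CPM in L1L2-FF and at 22.7, 29.6 and 29.0 CPM in L1L2-AKO (log2 fold change 0.69, SE 0.14, adjusted p = 0.0137), and was not called without L1L2-FF replicate 1 or L1L2-AKO replicates 2 or 3 (up to 0.0684).

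*Chrd*, which encodes the BMP trap chordin, was the antagonist that fell. It was at 8.49, 8.44 and 6.67 CPM in L1L2-FF and at 2.56, 4.06 and 5.34 CPM in L1L2-AKO, with a log2 fold change of -0.98 (SE 0.28, adjusted p = 0.0468). The groups did not overlap, but the gene was called in only 1 of the 6 fits that each left out a library, the one without L1L2-AKO replicate 3, with adjusted p-values of up to 0.135 in the others. *Nog*, which encodes noggin, and *Fst*, which encodes follistatin, overlapped and did not pass, with log2 fold changes of 0.78 (SE 0.37, adjusted p = 0.198) and 0.18 (SE 0.28, adjusted p = 0.724). *Grem1*, a BMP antagonist of stromal cells, had 0 counts in every L1L2-FF library and 2, 2 and 1 in L1L2-AKO, which is at the floor. *Bambi*, a pseudoreceptor without a kinase domain, was between 13.4 and 17.7 CPM in L1L2-FF and between 8.24 and 15.1 CPM in L1L2-AKO and did not pass (adjusted p = 0.249).

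**Figure D4:**
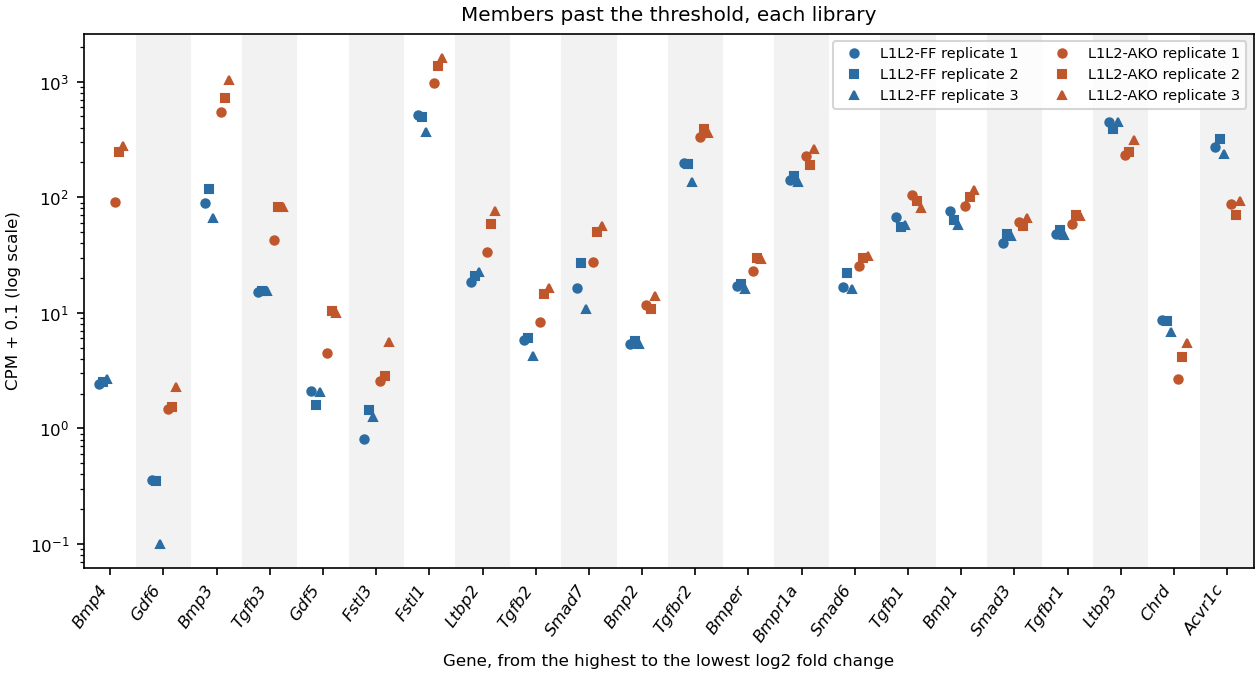
CPM plus 0.1 on a log axis (vertical) of the 22 genes past the threshold, from the highest to the lowest log2 fold change (horizontal), with 1 point per library. L1L2-FF is blue and L1L2-AKO orange, and the genotypes do not overlap for any of the 22. These genes were picked by the test between the genotypes, so that separation is no added evidence. L1L2-AKO replicate 1 is the lowest of its group for 15 of the 19 genes that rose.

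Among type I receptors 2 rose, 1 fell and 4 did not pass. As shares, 28.6% rose and 14.3% fell, against 9.28% and 7.18% of all tested genes. *Acvr1c* (chromosome 2, 58267453 to 58357895, minus strand) encodes ALK7, the activin and GDF receptor of mature adipocytes that restrains lipolysis. It was at 272, 318 and 237 CPM in L1L2-FF and at 87.8, 70.1 and 92.6 CPM in L1L2-AKO. No library of one genotype came near the other, and the log2 fold change was -1.72 (SE 0.16, adjusted p = 0.000679), the lowest of all members. It moved in the same direction as the adipocyte markers *Adipoq* (-1.26, adjusted p = 0.00640) and *Slc2a4* (-1.81, adjusted p = 0.00151), while *Cidec* (-0.01, adjusted p = 0.988) and *Fabp4* (-0.30, adjusted p = 0.389) did not pass. *Acvr1c* was the leading type I receptor per length in L1L2-FF, with 34.2% ± 2.08 of the summed level, and held 10.2% ± 1.31 in L1L2-AKO.

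*Bmpr1a*, a BMP receptor with a role in adipogenesis, was at 140, 153 and 136 CPM in L1L2-FF and at 226, 191 and 262 CPM in L1L2-AKO (log2 fold change 0.66, SE 0.14, adjusted p = 0.0179). It was higher in all L1L2-AKO libraries, but was not called without L1L2-FF replicate 1 or L1L2-AKO replicate 3 (adjusted p = 0.0774 and 0.0596). It was the leading type I receptor there, at 40.2% ± 4.46 against 26.2% ± 1.51 in L1L2-FF. The summed level of the type I receptors was 86.5 ± 8.50 CPM per kb in L1L2-FF and 88.6 ± 7.47 CPM per kb in L1L2-AKO, a difference smaller than the spread. *Tgfbr1*, which encodes the TGF-β receptor kinase ALK5, was at 48.0, 51.5 and 47.0 CPM in L1L2-FF and at 58.1, 69.8 and 68.8 CPM in L1L2-AKO. The groups were separate but close, at a log2 fold change of 0.42 (SE 0.11, adjusted p = 0.0391), and it was not called without L1L2-FF replicates 1 or 3 or L1L2-AKO replicates 2 or 3 (up to 0.153), nor in 4 of the 8 other settings. *Acvr1*, *Acvr1b*, *Acvrl1* and *Bmpr1b* overlapped between genotypes and did not pass. Of these, the activin receptor gene *Acvr1b* varied most within L1L2-AKO, with 29.6 CPM in replicate 1 and 67.0 and 77.4 CPM in replicates 2 and 3, against 30.2 to 37.9 CPM in L1L2-FF (adjusted p = 0.138, and 0.00363 without replicate 1). *Bmpr1b* was low, with 24 to 63 counts per library.

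Of the type II receptors only *Tgfbr2* (chromosome 9, 116084293 to 116175360, minus strand), the TGF-β-binding receptor, passed. It was at 197, 195 and 135 CPM in L1L2-FF and at 333, 392 and 358 CPM in L1L2-AKO, with a log2 fold change of 1.04 (SE 0.17, adjusted p = 0.00594). Each L1L2-AKO library was well above each control. It was the leading type II receptor per length in both genotypes, at 68.2% ± 2.99 and 77.6% ± 1.02 of the summed level, which went from 31.4 ± 5.79 to 56.8 ± 4.12 CPM per kb. *Acvr2a*, *Acvr2b* and *Bmpr2* had fitted log2 fold changes between 0.32 and 0.53, overlapped between genotypes and did not pass. The co-receptor gene *Tgfbr3*, which encodes betaglycan and presents TGF-β2 to the signaling receptors, was at 195, 240 and 171 CPM in L1L2-FF and at 264, 295 and 374 CPM in L1L2-AKO. The groups were separate, but the log2 fold change of 0.62 (SE 0.18) had an adjusted p of 0.0518. *Eng*, which encodes the endothelial co-receptor endoglin, was at 226, 172 and 207 CPM in L1L2-FF and at 292, 202 and 119 CPM in L1L2-AKO and did not pass (adjusted p = 0.975). The summed endothelial markers were at 2816, 2604 and 2101 CPM in L1L2-FF and at 2626, 2111 and 1219 CPM in L1L2-AKO. *Eng* had their order of libraries in L1L2-AKO but not in L1L2-FF, and their part in its values was not tested.

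The SMADs showed smaller differences. *Smad2*, the transducer of TGF-β and activin, was at 59.1, 54.7 and 63.3 CPM in L1L2-FF and at 58.0, 57.6 and 58.5 CPM in L1L2-AKO (log2 fold change -0.02, SE 0.10, adjusted p = 0.903). *Smad3*, its partner, was at 40.2, 48.0 and 46.3 CPM in L1L2-FF and at 61.2, 56.3 and 65.9 CPM in L1L2-AKO. *Smad3* was higher in all L1L2-AKO libraries (0.45, SE 0.12, adjusted p = 0.0364), but of the leave-one-out fits only that without L1L2-FF replicate 2 called it (up to 0.141 in the others), and *Smad2* lay within the range of the controls. *Smad4*, the common partner, was at 63.8, 63.5 and 54.6 CPM in L1L2-FF and at 69.0, 69.1 and 77.5 CPM in L1L2-AKO, separate but not past the threshold (0.24, SE 0.11, adjusted p = 0.188).

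Of the BMP-responsive SMADs none passed. *Smad1* was at 40.2, 34.6 and 32.5 CPM in L1L2-FF and at 27.8, 32.4 and 30.3 CPM in L1L2-AKO (-0.24, SE 0.12, adjusted p = 0.231). *Smad5* was at 105, 115 and 95.0 CPM in L1L2-FF and at 88.4, 85.5 and 77.1 CPM in L1L2-AKO (-0.33, SE 0.12, adjusted p = 0.0951). These genes had all L1L2-AKO values below the controls. *Smad9* was low in every library, at 0.926, 0.835 and 0.870 CPM in L1L2-FF and 0.845, 1.52 and 2.58 CPM in L1L2-AKO, on 27 to 74 counts (0.90, SE 0.43, adjusted p = 0.198).

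Both inhibitory SMADs, which are known as feedback targets of BMP and TGF-β signaling, rose. *Smad7* was at 16.2, 27.1 and 10.7 CPM in L1L2-FF and at 27.3, 50.3 and 55.9 CPM in L1L2-AKO. The highest control and the lowest L1L2-AKO library nearly met, and the log2 fold change of 1.3 (SE 0.37) had an adjusted p of 0.0468. *Smad6* was at 16.5, 22.1 and 16.0 CPM in L1L2-FF and at 25.4, 29.8 and 30.7 CPM in L1L2-AKO (0.65, SE 0.16, adjusted p = 0.0287). Neither was called without L1L2-FF replicates 1 or 3 or L1L2-AKO replicates 2 or 3, with adjusted p-values of up to 0.149 for *Smad7* and 0.111 for *Smad6*. The co-repressor genes *Ski*, *Skil* and *Tgif1* did not pass, with log2 fold changes of 0.27, -0.02 and 0.15.

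The ID genes, immediate targets of BMP receptors, did not pass. *Id3* was at 131, 137 and 107 CPM in L1L2-FF and at 141, 219 and 245 CPM in L1L2-AKO, separate by a small margin (0.69, SE 0.21, adjusted p = 0.0585). *Id1*, *Id2* and *Id4* overlapped, with fitted log2 fold changes between -0.11 and -0.02. *Tgfbi*, a secreted matrix protein named for its induction by TGF-β, overlapped at 29.4 to 64.8 CPM in L1L2-FF and 44.9 to 58.1 CPM in L1L2-AKO (adjusted p = 0.513).

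Of 54 further pathway genes that were found by symbol, 31 were tested, and 3 rose and 5 fell, or 25.8% against 16.5% of all tested genes, with a median log2 fold change of -0.14. *Thbs1*, which encodes thrombospondin 1, an activator of latent TGF-β, was at 243, 165 and 152 CPM in L1L2-FF and at 1096, 2224 and 3214 CPM in L1L2-AKO (log2 fold change 3.54, adjusted p = 0.00141). *Lrrc32*, which encodes the surface anchor of latent TGF-β, went from 20.3 to 30.6 CPM up to 54.0 to 145 CPM (2.1, adjusted p = 0.00659), and the BMP antagonist gene *Chrdl1* from 54.4 to 152 CPM up to 335 to 947 CPM (2.93, adjusted p = 0.00659). The genes that fell were the BMP and Wnt antagonist *Sostdc1* (-2.35), the anti-Müllerian hormone receptor *Amhr2* (-2.75, at 1.28 CPM or less), the TGF-β-activating integrin subunit *Itgb8* (-2.0), the tolloid protease *Tll1* (-1.62) and the SMAD ubiquitin ligase *Smurf1* (-0.53), with adjusted p-values from 0.0118 to 0.0361. The count of 8 was 5 without L1L2-FF replicate 1 or L1L2-AKO replicates 1 or 2 and 4 without L1L2-AKO replicate 3. In the order of these fits, 1290, 2076, 1281 and 1374 of all tested genes passed, against 2580 in the main fit. Of the ligands outside the 59, 15 were in the table, 2 of these passed the filter on low counts and 0 the test.

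Of 20 genes known as TGF-β targets, all tested, 7 rose (35.0%, against 9.28% of all tested genes) and 1 fell (5.0%, against 7.18%). Their median log2 fold change was -0.06. Several of them were measured by the study itself, so the list is not independent evidence of its direction. *Lox* (3.00, adjusted p = 0.00125), *Tagln* (2.67, adjusted p = 0.00544), *Acta2* (1.78, adjusted p = 0.00231) and *Ccn2* (1.58, adjusted p = 0.0130) rose by the most, and encode a collagen cross-linking enzyme, contractile proteins and a matricellular protein that is also a known target of YAP and TAZ. Of 6 BMP target genes 4 were tested and 1, *Atoh8*, rose (1.14, adjusted p = 0.0334). The count of 8 TGF-β targets was 3 without L1L2-FF replicate 1, L1L2-AKO replicate 2 or L1L2-AKO replicate 3. In the order of these fits, 1290, 1281 and 1374 of all tested genes passed, against 2580 in the main fit.

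L1L2-AKO replicate 1 was the lowest of its group for 15 of the 19 members that rose, or 78.9%, against 61.6% of the 1455 genes that rose in the whole table and 56.1% of the 57 tested members. The exceptions were *Tgfb1*, *Bmp2*, *Bmpr1a* and *Smad3*. In replicates 1 to 3 of L1L2-AKO, *Lats1* was at 38.9, 41.2 and 40.5 CPM and *Lats2* at 96.2, 126 and 135 CPM. The summed Schwann cell markers were at 750.9, 1380 and 1346 CPM, the T and B cell markers at 15.0, 28.0 and 26.4 CPM, the macrophage markers at 1045, 1152 and 1038 CPM and the endothelial markers at 2626, 2111 and 1219 CPM. The first and second of these lists were lowest in replicate 1 and the endothelial list was highest there, and the part of any of them in the members' values was not tested. Of the 22 calls 9 held in each of the 6 leave-one-out fits: *Tgfb3*, *Ltbp2*, *Bmp2*, *Bmp3*, *Bmp4*, *Gdf5*, *Fstl1*, *Tgfbr2* and *Acvr1c*. These 9 also passed under each of the 8 other settings, as did *Tgfb1*, *Tgfb2*, *Ltbp3*, *Fstl3*, *Bmper*, *Bmpr1a* and *Smad6*, and *Gdf6* in the 7 of them that gave it a value, or 17 of the 22 calls in all.

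**Figure D5:**
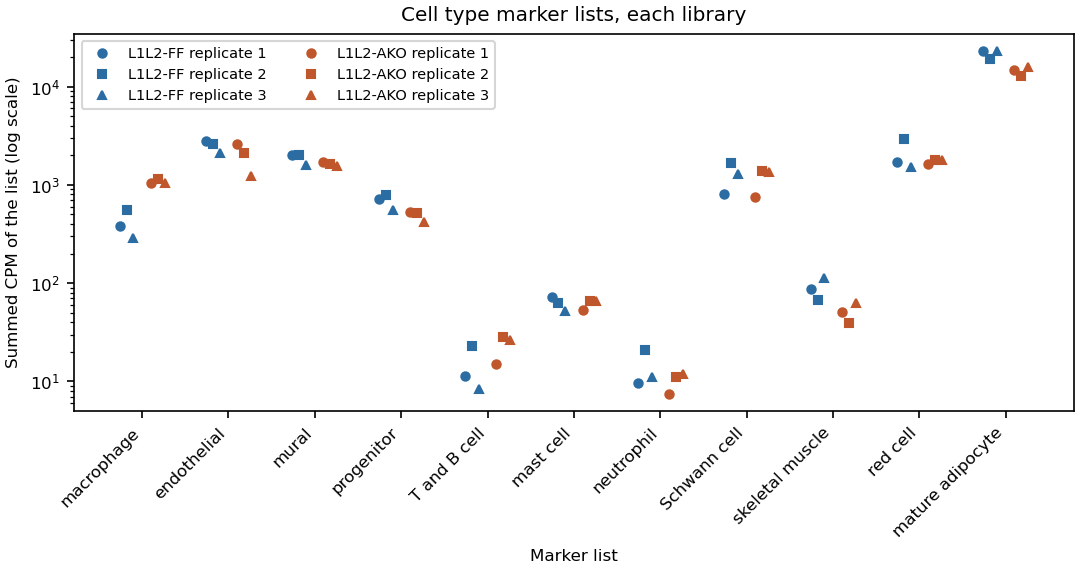
Summed CPM on a log axis (vertical) of 11 lists of cell type markers (horizontal), with 1 point per library, L1L2-FF in blue and L1L2-AKO in orange. The macrophage list is higher in every L1L2-AKO library, the mature adipocyte list lower in each, and the endothelial list lowest in L1L2-AKO replicate 3 at 1219 CPM.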

How the data were processed

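Adipocytes were floated from collagenase-digested inguinal scWAT, and poly(A) RNA was sequenced as paired ends by the authors on a BGISEQ-500. The submitters' processing notes name mm10, HISAT2 2.1.0 and StringTie 1.3.5. The values the authors deposited are raw counts per gene symbol, without normalization. The gene annotation and the strand setting of the counting are not given in the sources used here, so reads of a gene and of an overlapping antisense gene cannot be told apart. The table holds 0 rows that name no gene and 0 unmatched columns of samples.

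Libraries were assigned to 3 L1L2-FF and 3 L1L2-AKO replicates from the labels. Counts of all genes were filtered with filterByExpr (minimum count 10, minimum total 15), scaled by TMM and tested with the edgeR 4.0.16 quasi-likelihood test in R 4.3.3, two-sided, with Benjamini-Hochberg adjustment over 15674 genes and a threshold of 0.05. A standard error (SE) is the size of the fitted change over the root of its F statistic. Simulated counts had these library sizes and the same dispersion of 0.04 for every gene (15502 genes). There, 100% of genes changed 4-fold and 70.1% of those changed 2-fold were called, with 7 false calls among 173. Members with a wider spread are not represented by these rates. DESeq2 1.42.0, limma 3.58.1, other scalings and filters, and fits without each library were the alternatives. A count of 3 or fewer was taken as the floor, at total counts of 30548473 to 32107917. P-values measure the spread between pools of 4 mice.

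Positions, strands, exon lengths and shared 50-base stretches are from GENCODE M21 (GRCm38), and promoter windows from RefSeq (GRCm38.p6), which had entries for 42 of the 59 members. Members past the threshold, TGF-β ligands, TGF-β receptors and SMADs are given by library, the others by range; of the other lists, genes past the threshold are named, up to 4 a list by absolute log2 fold change. The members, the other gene lists and the marker lists were chosen with earlier results of these data known. With 3 libraries per genotype, an exact permutation test cannot give a p under 0.1 and none was run.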

Additional observations from a re-analysis of the deposited data

How the results depend on the processing

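Over the 8 settings that kept all libraries (DESeq2 size factors, upper-quartile factors, library size alone, the DESeq2 Wald test, limma-voom, no filter, at least 10 counts in every library, and replicate number as a block), between 16 and 21 members were higher and 2 or 3 lower, against 19 and 3. Between 6 and 10 of the other pathway genes and between 7 and 9 of the TGF-β targets passed, against 8 and 8. Under these settings between 2413 and 3374 of all tested genes passed, against 2580 in the main fit. Leaving out 1 library gave 9 to 21 members higher, 1 to 3 lower, 4 to 7 other pathway genes and 3 to 7 TGF-β targets. In the same fits between 1281 and 2845 of all tested genes passed, against 2580 in the main fit. Median log2 fold changes of all genes stayed between -0.0545 and -0.00967 under the 8 settings. The cause of the losses was not tested.

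Same-numbered libraries of the genotypes deviated from their group means with correlations of 0.206, 0.312 and -0.0548. Libraries of different numbers gave values from -0.348 to 0.249. These values do not settle whether the replicate numbers pair the samples, and the main fit did not pair them. With the replicate block 16 members were higher and 2 lower, and 10 other pathway genes and 7 TGF-β targets passed. Of all tested genes 2514 passed with the block, against 2580 in the main fit.

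Among called members, *Tgfbr1* was not past the threshold with upper-quartile factors, library size alone, no filter or the replicate block (adjusted p up to 0.0628), *Smad7* with upper-quartile factors or library size alone (up to 0.0548), *Smad3* with library size alone or the block (up to 0.0562), and *Bmp1* and *Chrd* with the block (0.065 and 0.0623). *Tgfbr3* passed with DESeq2 size factors, the DESeq2 Wald test and no filter, and *Id3* with the latter pair. Without L1L2-AKO replicate 1 *Tgfbr3*, *Id3*, *Acvr1b* and *Bmp5* passed, and without L1L2-FF replicate 2 *Tgfbr3*, *Bmpr2* and *Tgfbi*. *Gdf6*, *Bmp5* and *Bmp7* gave no value with at least 10 counts in every library.

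No called member changed sign. Some uncalled members did. *Eng* was at -0.00946 with upper-quartile factors, -0.073 with limma-voom and -0.060 with the replicate block, and *Bmpr1b* at 0.000143 with limma-voom. Without 1 library each, log2 fold changes ranged from -0.241 to 0.00997 for *Acvr1*, -0.327 to 0.215 for *Bmpr1b*, -0.119 to 0.189 for *Inhbb*, -0.327 to 0.301 for *Eng*, -0.162 to 0.182 for *Skil*, -0.174 to 0.221 for *Id1*, -0.250 to 0.187 for *Id2*, -0.283 to 0.101 for *Id4*, -0.0268 to 0.440 for *Ltbp4*, -0.0697 to 0.922 for *Inha*, -0.0726 to 0.499 for *Fst*, -0.0775 to 0.0258 for *Smad2* and -0.0385 to 0.254 for *Tgif1*.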
